A study of Mus musculus with 6 samples.

Results

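The genes described here encode proteins of the mitochondrial ribosome. They were chosen by symbol: every gene with a probe set that named it alone and whose symbol begins with Mrpl or Mrps followed by a digit. This gave 76 of the 18193 genes measured, 47 of the large subunit (Mrpl) and 29 of the small subunit (Mrps). The samples were endosteal RNA, lysed with Trizol from the inner wall of emptied femoral shafts, and central RNA, from the marrow cells flushed out of those shafts beforehand. Both came from 3 male C57BL/6 mice, 8 weeks old and injected intraperitoneally with saline, so that all groups share the strain and the injection. Each region has 3 arrays, with the letters A, B and C. Neither fraction is a sorted cell population. The endosteal fraction holds whatever RNA the Trizol reached, and the central cells were pelleted in serum-containing saline before lysis.

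The mitochondrial ribosome translates the few messages of the mitochondrial genome, all of which encode membrane subunits of the respiratory chain and the ATP synthase. Its RNAs come from the mitochondrial genome, whereas all of its proteins are encoded in the nucleus, made in the cytosol and imported. The small subunit binds the message and reads the code, and the large subunit joins the amino acids. Some of the proteins have counterparts in bacterial ribosomes and others are found only in mitochondria. Marrow cells that divide or that rely on respiration need this machinery, as do muscle fibres.

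Signals are the authors' deposited linear probe set values, and each gene is represented by its probe set with the highest mean. Changes are log2 differences, endosteal minus central, of signal + 16. A gene is called when its adjusted p is under 0.05 in limma's moderated test, adjusted by the Benjamini-Hochberg method over all 18193 genes. The median array signal over all probe sets was 120 to 131 on endosteal and 97.2 to 106 on central arrays, and the median log2 change of all genes was 0.10. On the same arrays the summed signal of 8 skeletal muscle genes was 58791 to 117784 in endosteal and 282 to 623 in central RNA, with all 8 called higher. For 6 measured bone matrix genes of 8 listed, the sum was 81941 to 99160 in endosteal and 1993 to 2645 in central RNA, and all 6 were called higher. For 8 neutrophil genes it was 509907 to 538891 in endosteal and 342178 to 373578 in central RNA, with 4 called higher and 1 lower. For 7 of 8 B lymphocyte genes it was 4703 to 9218 in endosteal and 11631 to 19095 in central RNA, with 2 called lower. For 7 of 8 proliferation genes it was 98898 to 114445 in endosteal and 85477 to 96328 in central RNA, with 1 called higher, and for 6 of 8 erythroid genes 49612 to 71196 in endosteal and 71786 to 83103 in central RNA, with 0 called (limma, 0 higher and 1 lower at an unadjusted p under 0.05). Of 6 endothelial genes 4 were called higher, and of 5 osteoclast genes 3 were called higher and 1 lower. Of these 8 lists, 0 genes lay below a signal of 16 on all arrays. The part of these cell types in the results below was not tested. In bulk RNA, more cells of a type and more RNA per cell cannot be told apart.

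Most mitochondrial ribosomal protein genes had a somewhat higher signal in endosteal than in central RNA. Of the 76 genes, 14 were called higher and 0 lower, where 7.92% of all genes were called higher and 4.02% lower. The share called among the 76 was 18.4%. That excess over all genes was not kept when any 1 of the 6 arrays was left out: 0 to 4 of the 76 were then called higher, at most 5.26%, where 3.02% to 5.10% of all genes were. With the array letter as a replicate block, 0 of the 76 were called, where 0.786% of all genes were called higher. At an unadjusted p under 0.05 in the fit without a block, 45 of the 76 were higher and 0 lower. Of all 18193 genes, 3253 were higher and 2061 lower by that measure. The median log2 change was 0.42, with quartiles of 0.22 and 0.57, and 70 of the 76 changes were above 0, which held for 57.5% of all genes. The changes were small: 16 of the 76 genes differed by more than 1.5-fold upward, as did 3898 of all 18193 genes. That count thus does not set the 76 apart. The highest change among the 76, that of Mrps28, was 2.02-fold.

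**Figure D1:**
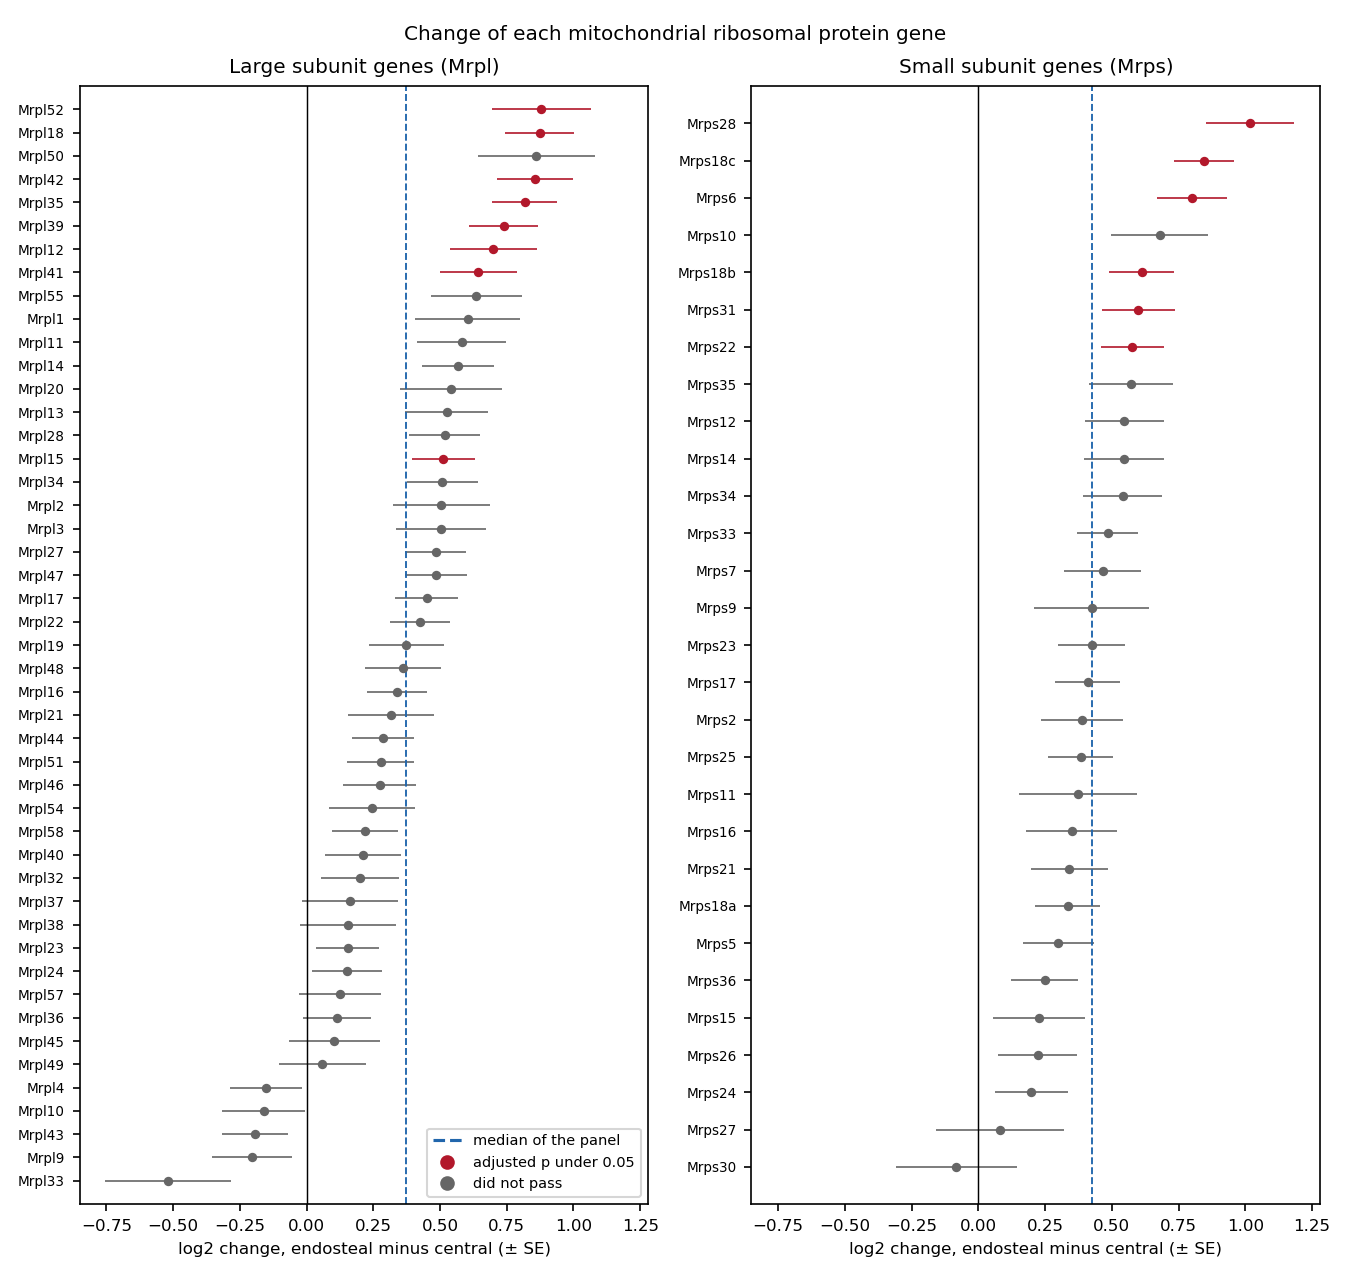
Log2 change (horizontal axis, endosteal minus central, bars are the SE of the fit on 3 arrays per region) of the 47 large subunit genes on the left and the 29 small subunit genes on the right, ordered by change. Red points passed the threshold (8 large, 6 small), grey points did not, and the dashed lines mark the medians of 0.37 and 0.42.

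All 3 endosteal arrays lay above all 3 central arrays for 52 of the 76 genes, where 22.3% of all genes did so. The reverse held for 1 gene, Mrpl43, where 15.4% of all genes did so. The 52 include all 14 called genes and 38 that did not pass. A further count shows how close many genes lay to the threshold: 20 of the 62 that did not pass had an adjusted p between 0.05 and 0.1. Relative to the mean of the central arrays, the median of the 76 genes stood at 0.42 on endosteal array A, 0.38 on B and 0.44 on C. It stood at 0.01 on central array A, -0.03 on B and 0.01 on C. The 3 endosteal arrays thus lay close together, with 70, 66 and 69 of the genes above the central mean on A, B and C. For all genes the same median was 0.07, 0.11 and 0.08 on the endosteal arrays.

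The small subunit held the largest change. Mrps28, the counterpart of the bacterial protein S1, had signals of 1921, 1931 and 2286 on endosteal arrays, against 864, 983 and 1174 on central arrays. Every endosteal value was far above the highest central one, and the log2 change was 1.02 (SE 0.17, limma adjusted p = 0.0208).

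The bacterial protein S18 has 3 relatives in mammalian mitochondria, encoded by Mrps18a, Mrps18b and Mrps18c. Mrps18c had signals of 4117, 3974 and 4286 on endosteal arrays, against 2298, 2341 and 2221 on central arrays. The groups were far apart with little spread inside each, and the log2 change was 0.85 (SE 0.11, limma adjusted p = 0.0127). Mrps18b had signals of 898, 923 and 939 on endosteal arrays, against 606, 551 and 637 on central arrays, with a log2 change of 0.61 (SE 0.12, limma adjusted p = 0.0329). Mrps18a had 1047, 942 and 928 on endosteal arrays, against 775, 728 and 800 on central arrays. Its groups did not overlap either, but its log2 change of 0.33 did not pass (SE 0.12, limma adjusted p = 0.137). The product of Mrps18a, in spite of its name, sits in the large subunit, as does that of Mrps30. Mrps30 had signals of 763, 509 and 889 on endosteal arrays, against 764, 707 and 763 on central arrays. Its endosteal arrays lay on both sides of the central ones, with a log2 change of -0.08 (SE 0.23, limma adjusted p = 0.843).

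Mrps6, the counterpart of bacterial S6, had signals of 891, 830 and 856 on endosteal arrays, against 449, 467 and 547 on central arrays. The log2 change was 0.80 (SE 0.13, limma adjusted p = 0.0212). Mrps31, a protein found only in mitochondrial ribosomes, had signals of 807, 726 and 759 on endosteal arrays, against 446, 555 and 499 on central arrays (log2 change 0.60, SE 0.14, limma adjusted p = 0.0456). Neither gene's groups overlapped. The remaining small subunit gene called was Mrps22, also specific to mitochondria, with a log2 change of 0.58 (limma adjusted p = 0.0366).

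Mrps12, which lies at the decoding centre, had signals of 2097, 1565 and 1829 on endosteal arrays, against 1251, 1233 and 1234 on central arrays. The endosteal values were all higher but more spread out, and the log2 change of 0.55 did not pass (limma adjusted p = 0.0704). Among small subunit genes with a high signal, Mrps14 at 0.54 and Mrps17 at 0.41 also had groups that did not overlap and did not pass, with adjusted p of 0.0738 and 0.0876. Mrps15, at 0.23, had overlapping groups (limma adjusted p = 0.441). Mrps36, whose product has been assigned to the 2-oxoglutarate dehydrogenase complex rather than to the ribosome, had a log2 change of 0.25 (limma adjusted p = 0.263).

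In the large subunit, 8 of 47 genes were called higher. Mrpl52, specific to mitochondria, had signals of 2523, 2747 and 2979 on endosteal arrays, against 1563, 1190 and 1755 on central arrays. Both groups were spread out but did not overlap, and the log2 change was 0.88 (SE 0.18, limma adjusted p = 0.0382). Mrpl18, related to the bacterial protein that binds 5S ribosomal RNA, had signals of 3436, 3039 and 2824 on endosteal arrays, against 1727, 1637 and 1676 on central arrays. Here the central arrays were tightly grouped, and the log2 change was 0.87 (SE 0.13, limma adjusted p = 0.0168). Mrpl42, another protein specific to mitochondria, had signals of 4583, 3795 and 3713 on endosteal arrays, against 2402, 2112 and 2125 on central arrays (log2 change 0.86, SE 0.14, limma adjusted p = 0.0225). Array A was the highest of its group in both regions for Mrpl18 and Mrpl42.

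Mrpl35, the counterpart of bacterial L35, had signals of 2097, 2405 and 2153 on endosteal arrays, against 1265, 1213 and 1273 on central arrays (log2 change 0.82, SE 0.12, limma adjusted p = 0.0167). Mrpl39, found only in mitochondria, had signals of 3358, 3761 and 3357 on endosteal arrays, against 1918, 2174 and 2172 on central arrays (log2 change 0.74, SE 0.13, limma adjusted p = 0.0241). For both genes the lowest endosteal array was more than 1.5-fold above the highest central one. Mrpl12 belongs to the flexible stalk through which translation factors are recruited, and in human cells its product also binds the mitochondrial RNA polymerase. It had signals of 1688, 1668 and 1957 on endosteal arrays, against 958, 1025 and 1287 on central arrays, with a log2 change of 0.70 (SE 0.16, limma adjusted p = 0.0493). Mrpl41, specific to mitochondria, had signals of 2674, 2870 and 3249 on endosteal arrays, against 1818, 1724 and 2068 on central arrays, with a log2 change of 0.64 (SE 0.14, limma adjusted p = 0.0434). Array C was the highest of its group in both regions for Mrpl12 and Mrpl41. The eighth large subunit gene called was Mrpl15, the counterpart of bacterial L15, at 0.51 (limma adjusted p = 0.0490).

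**Figure D2:**
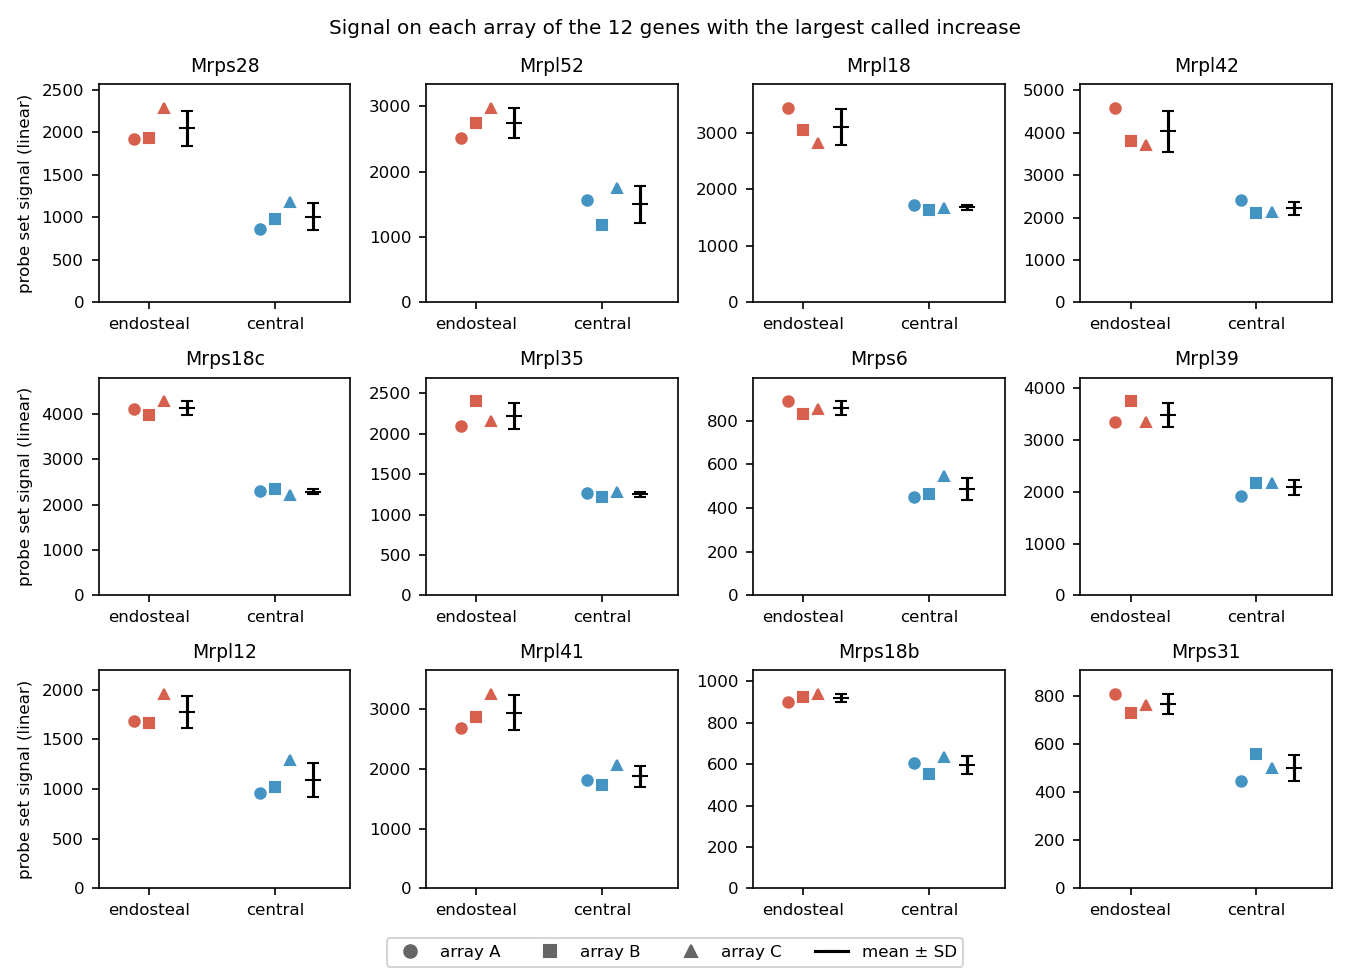
Probe set signal (vertical axis, linear scale from 0) on each endosteal and central array for the 12 genes with the largest called increase. Symbols stand for arrays A, B and C and black bars for the mean ± SD of 3 arrays. In each of the 12 panels the lowest endosteal point lies above the highest central point.

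Not every large subunit gene took this direction. Mrpl33, the counterpart of bacterial L33, had signals of 2023, 1909 and 1780 on endosteal arrays, against 3651, 2023 and 2752 on central arrays. The central arrays were widely spread and the lowest of them nearly equalled the highest endosteal one, so that the log2 change of -0.52 did not pass (SE 0.24, limma adjusted p = 0.216). Mrpl43, specific to mitochondria, had signals of 2147, 1824 and 1969 on endosteal arrays, against 2276, 2236 and 2271 on central arrays. It was the gene whose endosteal arrays all lay below the central ones, and its log2 change of -0.19 did not pass (SE 0.12, limma adjusted p = 0.359). Mrpl9, counterpart of bacterial L9, stood at -0.20 (limma adjusted p = 0.430). Its other probe sets changed by -0.09 and 0.07, so not all of them shared that direction. These genes were singled out after their values were seen.

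Among large subunit genes with a high signal, the mitochondria-specific gene Mrpl51 had 6583, 6989 and 5993 on endosteal arrays, against 5618, 5420 and 5071 on central arrays. The groups did not overlap, but the log2 change of 0.28 did not pass (SE 0.13, limma adjusted p = 0.215). Mrpl13, counterpart of bacterial L13, stood at 0.53 (limma adjusted p = 0.0862), and Mrpl24, counterpart of bacterial L24, at 0.15 (limma adjusted p = 0.506). Other probe sets of Mrpl13 changed by 0.40, 0.75 and, for a dim one, -0.46. In a fit over all probe sets except controls, their limma adjusted p were 0.243, 0.0495 and 0.469. Mrpl57 and Mrpl58 were once known by other names and were later recognised as large subunit proteins. Mrpl58 keeps the fold of a release factor and can free stalled peptides. Their log2 changes were 0.12 and 0.22, with limma adjusted p of 0.643 and 0.310.

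The subunits differed little from each other. The median log2 change was 0.37 for the large and 0.42 for the small subunit, a difference of -0.05. Genes called higher were 17.0% of the large subunit (8 of 47) and 20.7% of the small subunit (6 of 29), each above the 7.92% of all genes. These counts depended on the setting. With 1 array left out, 0 to 3 large and 0 to 2 small subunit genes were called higher, where 3.02% to 5.10% of all genes were. The large and small counts were 0 and 0 with the replicate block (0.786% of all genes). They were 2 and 2 after median centring (5.23%), and 1 and 5 with the mean of all probe sets (6.11%). Measured against the central mean, the median of the large subunit minus that of the small was -0.11 on endosteal array A, 0.005 on B and -0.06 on C. It was 0.009 on central array A, 0.003 on B and -0.003 on C. The endosteal arrays thus lay on both sides of 0, and the range over them was wider than the pooled median difference. Large subunit genes were more scattered, with quartiles of 0.16 and 0.55, against 0.33 and 0.57 in the small subunit. All endosteal arrays lay above all central arrays for 30 of 47 large and 22 of 29 small subunit genes. That held for 22.3% of all genes, and for 25.3% of genes whose mean level lay above the median of all genes. Moving Mrps18a and Mrps30 to the large subunit and leaving out Mrps36 gave medians of 0.36 (49 genes) and 0.44 (26 genes). These differences between subunits are descriptions and carry no test.

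A split by origin showed no common order either. In the large subunit, 28 genes with bacterial counterparts had a median of 0.48 with 4 called higher, and 18 genes specific to mitochondria had a median of 0.26, also with 4 called higher. In the small subunit, 17 genes with bacterial counterparts had a median of 0.42 with 4 called higher, against 0.48 for 9 genes specific to mitochondria with 2 called higher. The genes with bacterial counterparts thus had the higher median in the large subunit and the lower one in the small subunit. After median centring, the medians with bacterial counterparts and specific to mitochondria were 0.22 and -0.0015 in the large subunit. In the small subunit they were 0.16 and 0.22. Of 5 further ribosomal proteins whose symbols fall outside the pattern, 4 were measured. Chchd1, a small subunit protein, stood at 0.60 (limma adjusted p = 0.0514) and Gadd45gip1, a large subunit protein, at 0.53 (limma adjusted p = 0.0538). All 4 are named here because they are so few. Dap3 and Ptcd3, both of the small subunit, stood at 0.28 and 0.25, and 0 of the 4 passed in either direction (2 higher and 0 lower at an unadjusted p under 0.05).

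The other genes of mitochondrial gene expression are given by counts, which carry no test against the 7.92% of all genes called higher. Of 10 measured mitochondrial translation factors of 12 listed, 0 were called in either direction, against 2 higher and 1 lower at an unadjusted p under 0.05, and the median was 0.22. Of 16 mitochondrial aminoacyl-tRNA synthetases of 17 listed, 1 was called higher and 0 lower, with a median of 0.28. It was Rars2, the arginine enzyme, with a mean signal of 1018 ± 35.5 in endosteal and 655 ± 4.22 in central RNA (SD, n = 3 each) and a log2 change of 0.62 (limma adjusted p = 0.0258). Of 21 assembly factors of 22 listed, 1 was called higher and 0 lower, with a median of 0.07. It was Fastkd2, an RNA-binding protein needed to build the large subunit, with 839 ± 18.4 in endosteal and 497 ± 39.5 in central RNA (SD, n = 3 each) and a log2 change of 0.74 (limma adjusted p = 0.0211). Of 11 measured genes of mitochondrial transcription and the nucleoid, 0 were called, against 1 higher and 0 lower at an unadjusted p under 0.05, and the median was 0.04.

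Cytosolic ribosomal proteins and the respiratory chain were shifted by about the same amount as the mitochondrial ribosome. Of 46 cytosolic ribosomal protein genes, 11 were called higher and 0 lower, with a median of 0.41. Rpl3l, a form made in striated muscle, and Rpl39l, a copy of Rpl39, had the largest changes, at 3.66 and 2.19, whereas Rps15 and Rpl41 stood at 0.71 each. Of 81 oxidative phosphorylation subunits, 26 were called higher and 0 lower, with a median of 0.43. The 3 largest changes there, 5.10 for Cox8b, 3.70 for Cox7a1 and 1.57 for Cox6a2, belong to cytochrome oxidase forms typical of muscle, and Atp5g1, a subunit of the ATP synthase, followed at 0.97. The highest change among the 76 mitochondrial ribosomal protein genes was 1.02. Genes whose mean level lay above the median of all genes, which include 75 of the 76, had a median change of -0.02, with 7.88% called higher and 7.05% lower. Of those genes, 25.3% had all endosteal arrays above all central arrays, 27.0% had all of them below, and 48.7% had a change above 0. A fit on these genes alone called 42 of the 75 higher and 0 lower, where 17.5% of them were called higher and 19.0% lower.

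**Figure D3:**
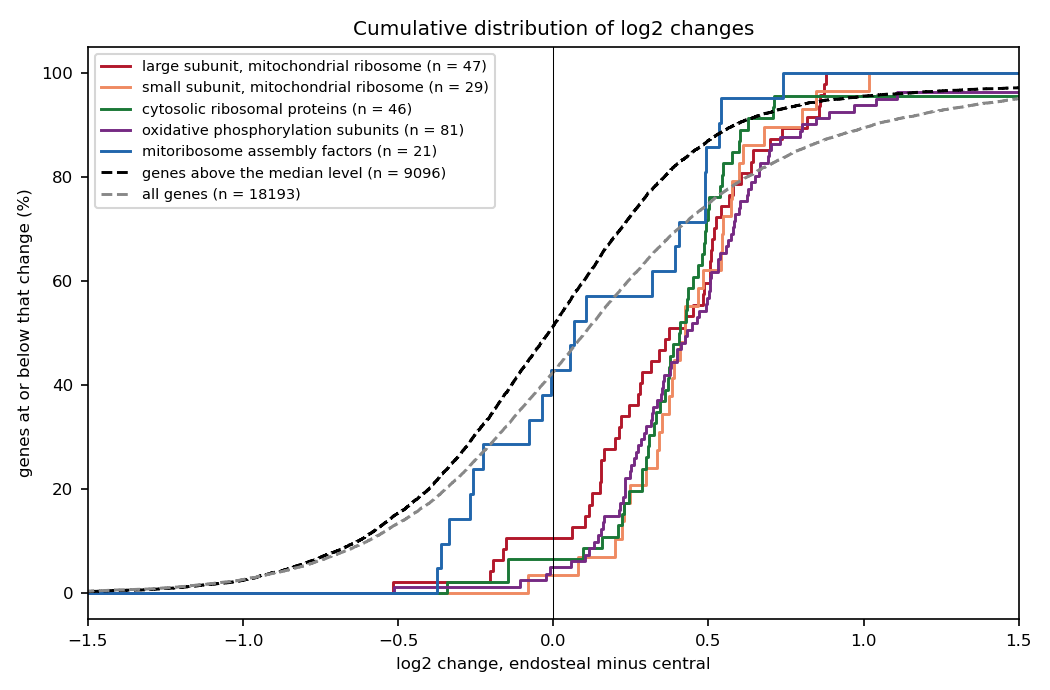
Cumulative percentage of genes (vertical axis) at or below each log2 change (horizontal axis, endosteal minus central, shown from -1.5 to 1.5). The curves of the large and small mitochondrial subunits, the cytosolic ribosomal proteins and the oxidative phosphorylation subunits cross 50% between 0.37 and 0.43, that of the assembly factors at 0.07, that of all genes at 0.10 and that of genes above the median level at -0.02.

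The count of calls depended on how the spread of a gene was estimated. With the spread allowed to vary with the signal (limma's intensity trend), 42 of the 76 were called higher and 0 lower, where 12.2% of all genes were called higher and 9.31% lower. These were 25 large and 17 small subunit genes, among them all 14 named as called above, and in all 42 the groups did not overlap. With the array letter as a replicate block, 0 were called in either direction and the 14 had adjusted p from 0.0635 to 0.128, where 0.786% of all genes were called higher and 0.033% lower. With a random rather than a fixed block for the array letter, an alternative added once the data had been seen, 20 were called higher and 0 lower, where 9.33% of all genes were called higher and 5.19% lower. Leaving out 1 array left few calls, all of them higher. Without endosteal A, 3.95% of the 76 genes (3) were called higher, where 4.22% of all genes were. Without endosteal B it was 3.95% (3), where 3.68% of all genes were, and without endosteal C 5.26% (4), where 5.10% of all genes were. Without central A it was 1.32% (1) against 3.47% of all genes, without central B 0 (limma, smallest adjusted p among the 14 0.0552) against 3.02%, and without central C 2.63% (2) against 4.01%. These shares lay near or below those of all genes, so that the number of calls in these fits does not set the 76 apart. The median over the 76 stayed between 0.40 and 0.43 in those 6 fits.

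The size of the shift depended on the scale set for the arrays. Centring each array on its median moved the median of all genes to -0.16 and that of the 76 to 0.16, with 53 of the 76 above 0 and 4 (5.26%) called higher. Those 4 were Mrps28, Mrpl18, Mrps18c and Mrpl35, and 5.23% of all genes were called higher there and 9.82% lower, so that the share called higher was close to that of all genes. Quantile normalisation put the median of all genes at 0.02 and that of the 76 at 0.45, with 18 called higher, where 6.39% of all genes were called higher and 3.84% lower. Scaling to 24 poly-A control probe sets, which were dimmer on all endosteal arrays, put the median of all genes at 0.97 and that of the 76 at 1.43, with 75 called higher, where 57.9% of all genes were called higher and 0.253% lower. The median of the 76 lay above that of all genes under each of these scalings, and 0 of the 76 were called lower under any of them.

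**Figure D4:**
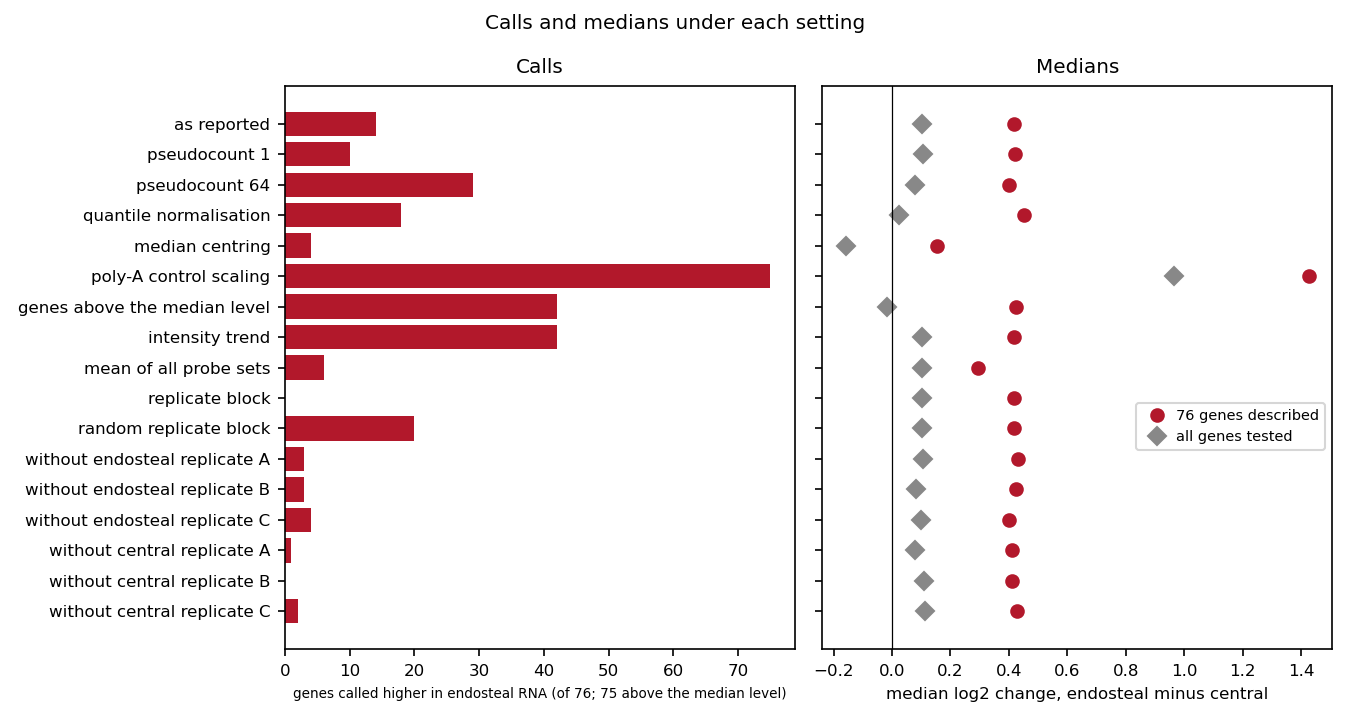
Left, the number of mitochondrial ribosomal protein genes called higher in endosteal RNA (bars, from 0) under each setting. Right, the median log2 change (endosteal minus central) of these genes (circles) and of all genes tested (diamonds). The count ran from 0 to 75, whereas the circle lies to the right of the diamond in every row.

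Many of the genes were measured by more than 1 probe set. The 76 genes had 156 probe sets that named them alone, and 42 genes had several. Of the 80 probe sets not picked to represent a gene, 38 had a mean signal over 200, and 32 of those had a change above 0. Among the 6 below 0, those of Mrps21 (-0.41) and Mrps9 (-0.54) had all endosteal arrays below all central arrays. Neither passed in a fit over all probe sets except controls (limma adjusted p 0.241 and 0.109). Of the 42 dimmer ones, 21 had a change above 0 and 21 below. For Mrpl52, the other probe sets with a mean signal over 200 changed by 0.58 and 0.63, for Mrps6 by 0.81, for Mrpl41 by 0.46 and for Mrpl39 by 0.34. For Mrpl15 such probe sets changed by 0.54, 0.46, 0.58 and 0.20. In a fit over all probe sets except controls, none of these other probe sets passed (limma, smallest adjusted p 0.0731). Taking each gene as the mean of all its probe sets, dim ones included, gave 6 genes called higher (7.89%), where 6.11% of all genes were, and a median of 0.29, where that of all genes was 0.10. With a pseudocount of 1 in place of 16, 10 of the 76 were called higher, where 6.33% of all genes were, and with 64 it was 29, where 10.2% of all genes were. The 2 genes Mrpl30 and Mrpl53 were left out because their probe sets also name another gene.

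As most changes took the same direction, the DNA at their starts was searched for short motifs. RefSeq windows of 250 bases before to 50 bases after the start (build GRCm38.p6) were found for 67 of the 76 genes, 73 windows in all. The motifs searched were CCGGAAG, a core bound by ETS factors such as the GA-binding protein, and GCGCA followed by any base and GCGC, the near-palindromic site of nuclear respiratory factor 1. Both factors are known as activators of nuclear genes for mitochondrial proteins. Also searched were GGGCGG, bound by SP factors, the CCAAT box, the YY1 motif AAGATGG and the E-box CACGTG. Each motif was searched on both strands. The 5 windows shown belong to called genes with a match to the ETS or the nuclear respiratory factor 1 motif, and the window of Mrpl33, the gene with the lowest change, is given for contrast. Capitals mark those 2 motifs, on either strand. The windows lie at chr14:54426659-54426958 (plus strand) for Mrpl52, chr17:12916042-12916341 (minus) for Mrpl18, chr5:100798509-100798808 (plus) for Mrps18c, chr16:84735195-84735494 (minus) for Mrpl39, chr11:120484387-120484686 (plus) for Mrpl12 and chr5:31613701-31614000 (plus) for Mrpl33.
Mrpl52: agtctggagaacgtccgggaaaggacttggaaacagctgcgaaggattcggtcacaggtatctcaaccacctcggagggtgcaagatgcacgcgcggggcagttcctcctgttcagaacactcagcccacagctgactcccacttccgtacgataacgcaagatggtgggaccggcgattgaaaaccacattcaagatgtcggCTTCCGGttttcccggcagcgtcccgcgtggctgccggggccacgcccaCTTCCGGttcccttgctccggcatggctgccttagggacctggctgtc
Mrpl18: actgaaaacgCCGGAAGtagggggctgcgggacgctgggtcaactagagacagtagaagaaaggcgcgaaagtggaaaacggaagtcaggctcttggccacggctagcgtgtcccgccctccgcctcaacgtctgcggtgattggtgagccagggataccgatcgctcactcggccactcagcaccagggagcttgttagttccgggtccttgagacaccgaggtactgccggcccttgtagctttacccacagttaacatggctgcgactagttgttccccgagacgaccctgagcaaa
Mrps18c: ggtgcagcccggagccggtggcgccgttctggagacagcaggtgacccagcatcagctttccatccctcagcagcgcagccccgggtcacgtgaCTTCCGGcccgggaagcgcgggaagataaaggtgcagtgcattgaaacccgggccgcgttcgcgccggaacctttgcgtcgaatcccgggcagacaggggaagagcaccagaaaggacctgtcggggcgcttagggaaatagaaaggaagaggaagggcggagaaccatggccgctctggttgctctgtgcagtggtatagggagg
Mrpl39: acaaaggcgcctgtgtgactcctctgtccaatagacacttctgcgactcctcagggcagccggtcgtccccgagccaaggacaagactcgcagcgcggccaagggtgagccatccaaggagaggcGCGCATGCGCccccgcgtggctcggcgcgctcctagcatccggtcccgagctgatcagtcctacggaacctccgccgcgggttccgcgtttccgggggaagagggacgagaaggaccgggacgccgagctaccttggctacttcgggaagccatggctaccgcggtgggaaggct
Mrpl12: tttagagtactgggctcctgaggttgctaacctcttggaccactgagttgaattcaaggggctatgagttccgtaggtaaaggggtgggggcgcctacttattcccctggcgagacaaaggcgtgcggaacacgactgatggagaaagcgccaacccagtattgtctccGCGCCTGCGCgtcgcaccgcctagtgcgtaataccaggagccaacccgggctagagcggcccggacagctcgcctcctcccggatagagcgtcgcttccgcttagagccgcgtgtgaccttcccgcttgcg
Mrpl33: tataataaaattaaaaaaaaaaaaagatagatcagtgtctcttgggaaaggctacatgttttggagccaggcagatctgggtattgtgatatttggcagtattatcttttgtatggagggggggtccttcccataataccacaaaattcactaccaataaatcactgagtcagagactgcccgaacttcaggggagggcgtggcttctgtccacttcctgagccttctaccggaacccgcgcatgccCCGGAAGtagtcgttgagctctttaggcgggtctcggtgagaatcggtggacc

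The window of Mrpl52 holds 2 ETS matches, those of Mrpl18, Mrps18c and Mrpl33 hold 1 each, and those of Mrpl39 and Mrpl12 hold 1 nuclear respiratory factor 1 match each. Over all 73 windows, 34.2% held the ETS motif, against 13.0% of the 18109 windows of tested genes and 8.86% of all 32851 windows in the table. The nuclear respiratory factor 1 motif was in 16.4% of the 73, against 7.43% of windows of tested genes. AAGATGG was in 17.8% of the 73, against 6.38% and 6.34%. GGGCGG was in 53.4%, against 52.3% and 35.7%, CCAAT in 39.7%, against 37.4% and 37.4%, and CACGTG in 9.59%, against 8.72% and 7.15%. The E-box CACGTG also occurs in the printed window of Mrps18c, in lower case beside the ETS match.

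The 25 genes with an ETS match had a median log2 change of 0.42 with 5 called higher, and the 42 without had 0.40 with 7 called higher. The 12 genes with a nuclear respiratory factor 1 match had a median of 0.31 with 2 called higher, and the 55 without had 0.42 with 10 called higher. For the other motifs the median with a match stood against that without at 0.39 and 0.42 (GGGCGG, 34 and 33 genes), 0.46 and 0.37 (CCAAT, 26 and 41), 0.33 and 0.42 (AAGATGG, 13 and 54) and 0.50 and 0.40 (CACGTG, 5 and 62). The 6 differences thus ran in both directions. A match describes the letters in the window and is not evidence of binding. These shares carry no test.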

How the data were processed

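RNA was measured on 6 Affymetrix mouse arrays, 3 endosteal and 3 central, with labelled cRNA made from 2 micrograms of total RNA by a one-cycle kit, per the labels' protocols. The authors deposited 1 linear intensity per probe set and array. The software that made them is not given in the sources used here. Each array's mean after trimming 2% at each end was 500.0, so 1 scale factor per array appears to have been used.

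Of 45101 probe sets, 34945 named 1 gene in the platform annotation. Symbols were checked by gene identifier against RefSeq (GRCm38.p6), which found 34741 and changed 0. Signals became log2(signal + 16), which understates changes of dim genes, and were fitted with limma 3.58.1 in R 4.3.3 (lmFit, eBayes, region as the only term, two-sided). The procedure was also run on simulated data with noise drawn independently for each array, which does not cover arrays that share a mouse. The outcome of that run is not given here. Each fit ran over the whole table.

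The genes named one by one are the 12 largest calls in each direction, the 4 brightest probe sets of each subunit, 10 genes fixed for their role and a few others identified as singled out later (Mrps22, Mrpl15, Mrpl33, Mrpl9, Mrpl43, and the 4 ribosomal proteins outside the symbol pattern). Of each other gene list, up to 4 called genes are named, largest change first. The genes and lists were chosen with earlier results of these data known. The labels do not state that a letter marks 1 mouse. Over all genes, the 2 arrays of a letter, each less the mean of its region, correlated at 0.05 for A, 0.04 for B and 0.01 for C, and over genes above the median level at 0.26, 0.13 and 0.10. The second set, which holds 75 of the 76 genes, passes 0.1 for each letter and the first does not. Such correlations do not show whether a letter marks 1 mouse, so which arrays share a mouse is unsettled. The main comparison has no block because the study compared regional means without one, and blocked values stand beside it. It thus treats the 6 arrays as independent, although both regions came from the same 3 mice. The number of arrays limits the precision.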

Additional observations from a re-analysis of the deposited data

How the results depend on the processing

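The direction of the median over the 76 genes held under all alternatives run, and 0 genes were called lower in any. The count called higher was 14 as reported, where 7.92% of all genes were. It was 29 with pseudocount 64 (10.2% of all genes), 42 with an intensity trend (12.2%) and 75 with poly-A scaling (57.9%). It was 42 among genes above the median level, where 17.5% of those genes were called higher. With the mean of all probe sets it was 6, after median centring 4 and with the replicate block 0 (0.786% of all genes). It ran from 0 to 4 when 1 array was left out, where 3.02% to 5.10% of all genes were called higher. These counts, and those after centring and with the mean of all probe sets (where 5.23% and 6.11% of all genes were called higher), lay near or below the share of all genes. With pseudocount 1, quantile normalisation and a random block for the letter, the last chosen after seeing the data, it was 10, 18 and 20. Of all genes, 6.33%, 6.39% and 9.33% were called higher there. A further fit took all probe sets except controls, in place of 1 per gene. Of the 14, Mrps28, Mrpl18, Mrpl42, Mrps18c, Mrpl35 and Mrps6 passed there (limma adjusted p 0.0331 to 0.0480). The other called genes did not (limma adjusted p 0.0561 to 0.108). The share over all probe sets was not counted. The median of the 76, 0.42 as reported, was 0.45 after quantile normalisation, 0.16 after centring, 1.43 with poly-A scaling and 0.29 with the mean of all probe sets. In those settings the large subunit median was 0.42, 0.11, 1.38 and 0.27. For the small subunit it was 0.16 after centring, 1.43 with poly-A scaling and 0.35 with the mean of all probe sets. Without 1 array the large subunit median ran from 0.38 to 0.42 and the small from 0.41 to 0.47. Some of the 29 named genes, but none of the 14 called, changed sign. After centring these were Mrpl57 (-0.14), Mrpl24 (-0.11), Mrpl58 (-0.043), Mrps15 (-0.034) and Mrps36 (-0.013), and Mrps15 stood at -0.12 with the mean of all probe sets. With poly-A scaling they were Mrps30 (0.92), Mrpl43 (0.82), Mrpl9 (0.81) and Mrpl33 (0.50). Mrps30 ran from -0.25 to 0.14 without 1 array, the highest being without endosteal B. The cause of these changes was not tested. Of all genes, 1441 were called higher and 731 lower as reported, a share of 66.3% higher, against 34.8% after centring (952 and 1786) and 99.6% with poly-A scaling (10531 and 46).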
